A study of Homo sapiens with 18 samples.

Results

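The potassium channel genes are the 95 rows, of 57133 genes counted, whose symbol is KCN followed by letters of a subfamily and a number, which leaves out antisense transcripts and pseudogenes. RNA-seq was performed on PGP1, an established human induced pluripotent stem cell (PSC) line, kept undifferentiated in mTeSR1 medium on Matrigel. Wild-type (WT) cells were compared with clone 1 (PCGF6KO1) and clone 2 (PCGF6KO2), which both carry a homozygous CRISPR-Cas9 deletion in the first exon of PCGF6 and differ in the length of that deletion. There were 2 libraries for each of the 3 groups, each clone is a single edited line, and no drug or differentiation treatment was applied to any group. The labels do not say that the 2 libraries of a group came from separate cultures, so the p-values measure only the spread between these libraries, which may be technical.

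Potassium channels let potassium ions cross the membrane down their gradient and so set the resting potential and end electrical signals. Voltage-gated (Kv) alpha subunits open on depolarisation, silent Kv subunits form no channel alone and modify other Kv channels, inward rectifiers and 2-pore channels hold the resting potential, and a further group opens with intracellular calcium or sodium. Auxiliary subunits bind the pore-forming proteins and change their gating or their transport to the membrane. PCGF6, the deleted gene, encodes a subunit of the Polycomb complex PRC1.6, which contains the DNA-binding proteins MAX and E2F6.

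The libraries summed to between 15877396 and 18918609 counts. PCGF6 had 268 and 300 counts (WT), 99 and 103 (clone 1) and 187 and 159 (clone 2), and was lower in the 4 PCGF6-KO libraries (log2 fold change −1.15, SE 0.27, adjusted p = 0.00914). The counts cover the whole gene, so they do not check the deletion in its first exon. The 8 markers of undifferentiated cells summed to 5150 to 5361 CPM in WT, 4560 to 4689 CPM in clone 1 and 4385 to 4499 CPM in clone 2 (CPM, counts per 1000000 counts of the scaled library). POU5F1 was between 1416 and 1625 CPM in every library. Of the 8, 0 were higher and 3 lower in PCGF6-KO. ZFP42 had 304 and 329 counts in WT and 1 to 2 in PCGF6-KO, and PRDM14 and SOX2 had log2 fold changes of −1.51 and −0.69. The 6 primitive streak and mesoderm markers summed to 6.41 to 6.45 CPM in WT, 651 to 659.8 CPM in clone 1 and 844 to 844 CPM in clone 2, and all 5 that could be tested were higher. For the 7 cardiac and smooth muscle markers the sum was 95.5 to 98.3 CPM in WT, 1387 to 1581 CPM in clone 1 and 1965 to 2096 CPM in clone 2 (5 higher), with MYH6 at 0.441 to 0.715 CPM in the PCGF6-KO libraries. The 4 endoderm markers summed to 1.5 to 1.84 CPM in WT, 21.9 to 22 CPM in clone 1 and 41.3 to 45.5 CPM in clone 2 (4 higher), the 3 neural crest markers to 13.3 to 14.3 CPM in WT, 19.4 to 22.2 CPM in clone 1 and 21.4 to 23.2 CPM in clone 2 (2 higher, 1 lower). The 5 neural progenitor markers summed to 0.779 to 0.921 CPM in WT, 2.67 to 3.47 CPM in clone 1 and 3.68 to 4.91 CPM in clone 2 (2 higher of 3 tested, SOX1 at 0 or 1 count), and the 8 neuron markers to 71.3 to 76.5 CPM in WT, 46.9 to 55.8 CPM in clone 1 and 44.3 to 48.9 CPM in clone 2 (1 higher, 3 lower). The part of these markers in the changes of the potassium channel genes was not tested, and in bulk RNA fewer cells of a type and less RNA per cell cannot be told apart.

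Of the 95 genes, 66 had enough counts to be tested and 29 did not. The test was edgeR's quasi-likelihood test over 17672 genes, and a call needed an adjusted p (Benjamini-Hochberg) under 0.05 with a log2 fold change beyond 0.6 in either direction. In PCGF6-KO against WT, 29 of the 66 were called (43.9%), against a background of 23.6% of all genes tested. They divided into 15 that were higher (22.7%, background 14.9%) and 14 that were lower (21.2%, background 8.7%), so that the median log2 fold change of the 66 was 0.00. All 4 PCGF6-KO libraries lay above both WT libraries for 20 genes (background 29.5% of genes) and below them for 24 (background 27.6%), and the groups overlapped for 22. The potassium channel genes together took 0.0418% to 0.0421% of the WT counts and 0.0355% to 0.0376% of the PCGF6-KO counts. With 1 WT library left, the calls fell to 6 higher and 9 lower without WT replicate 1 (backgrounds 11.3% and 5.69%), and to 8 higher and 9 lower without WT replicate 2 (backgrounds 10.7% and 5.66%). When the spread was estimated within the clones and their mean was compared with WT, 19 were higher and 22 lower, and the backgrounds rose to 16.5% and 11%.

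Against WT alone, clone 1 had 25 calls (16 higher and 9 lower, backgrounds 16% and 8.8%) and clone 2 had 42 (20 higher and 22 lower, backgrounds 16.9% and 12.5%). These comparisons share the WT libraries. In both clones 14 genes were called higher (background 13.4%) and 9 lower (background 7.19%), and 0 were called in opposite directions. Only clone 2 reached the threshold for 19 genes and only clone 1 for 2 genes, which does not show that the clones differ at them. The difference between the clones was tested directly and was called for 11 genes. The heat map of called genes by library shows the 2 libraries of each group side by side.

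**Figure D1:**
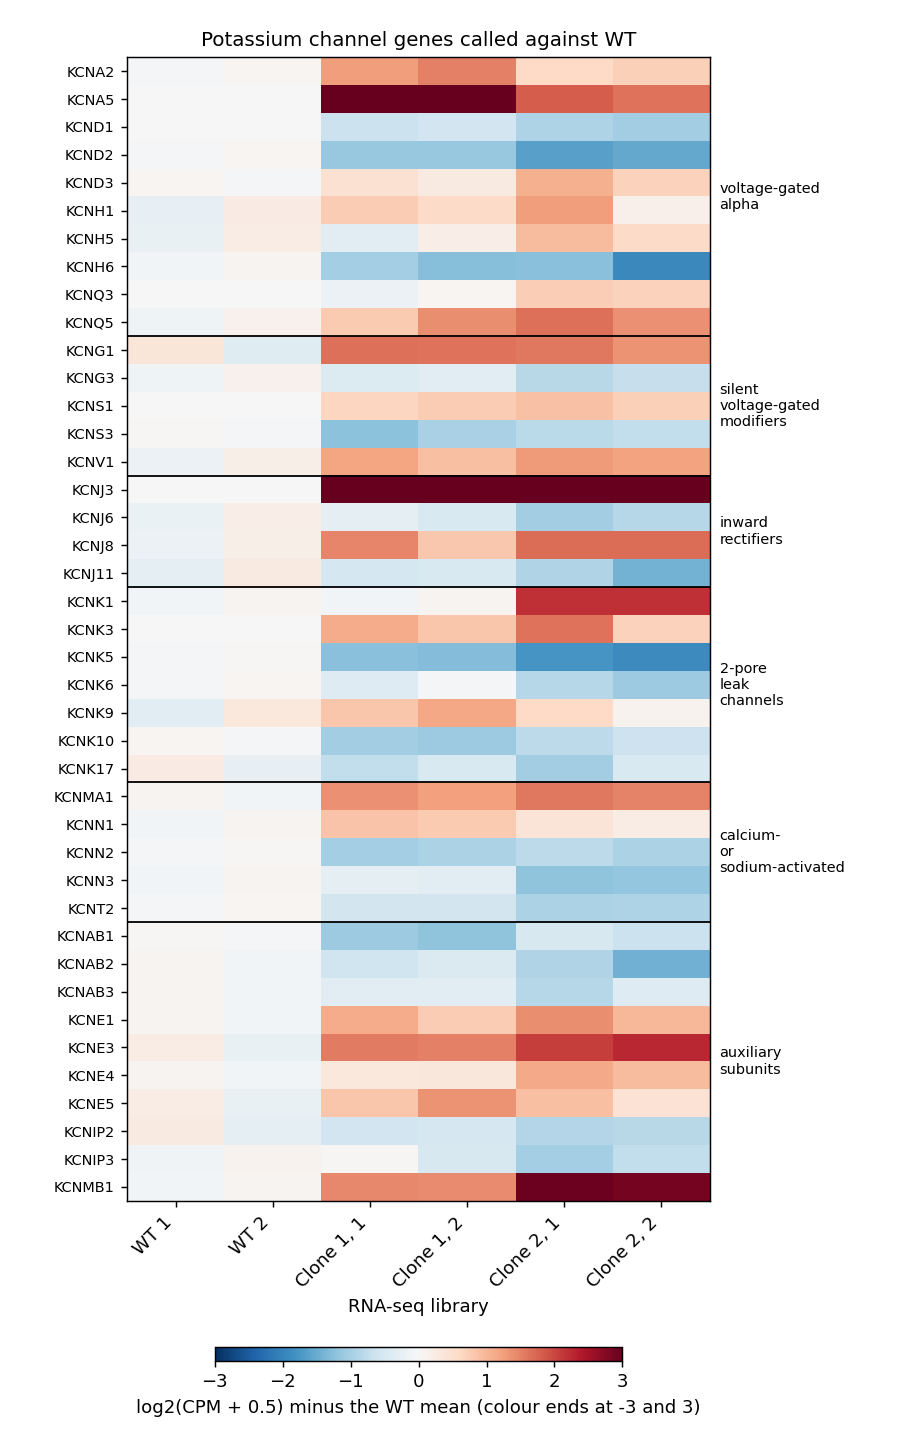
Level of 41 potassium channel genes called in PCGF6-KO or in either clone against WT, as log2(CPM + 0.5) minus the WT mean, for each of the 6 RNA-seq libraries (columns), grouped by class (black lines). The 4 PCGF6-KO libraries of KCNJ3 are at the upper end of the scale and those of KCNK5 lie below the WT mean, whereas KCNK1 departs from WT in the clone 2 libraries.

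Per kilobase of gene model, a scale that lets genes of different length be compared, the median WT level of the 66 genes was 0.305 CPM per kb, against 2.98 CPM per kb over all genes tested. The most abundant transcript in WT was KCNK5, a 2-pore channel that opens at alkaline pH, at 17 ± 0.551 CPM per kb (mean ± SD, n = 2). It was followed by KCNMB4 (the beta 4 subunit of the BK channel) at 5.84 ± 0.022 and KCNS3 (a silent subunit) at 5.18 ± 0.213 CPM per kb. KCND2 (an A-type channel) was also among the 5 highest, at 4.17 ± 0.229 CPM per kb. This order is a description, with no test. The order changed with the genotype. KCNK5 was still first in clone 1, at 6.93 CPM per kb, with KCNMB4 next at 6.19. In clone 2 KCNK1, rank 8 in WT, was first at 13.2 CPM per kb, KCNMB4 was at 8.34 and KCNK5 had rank 3 at 4.65.

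**Figure D2:**
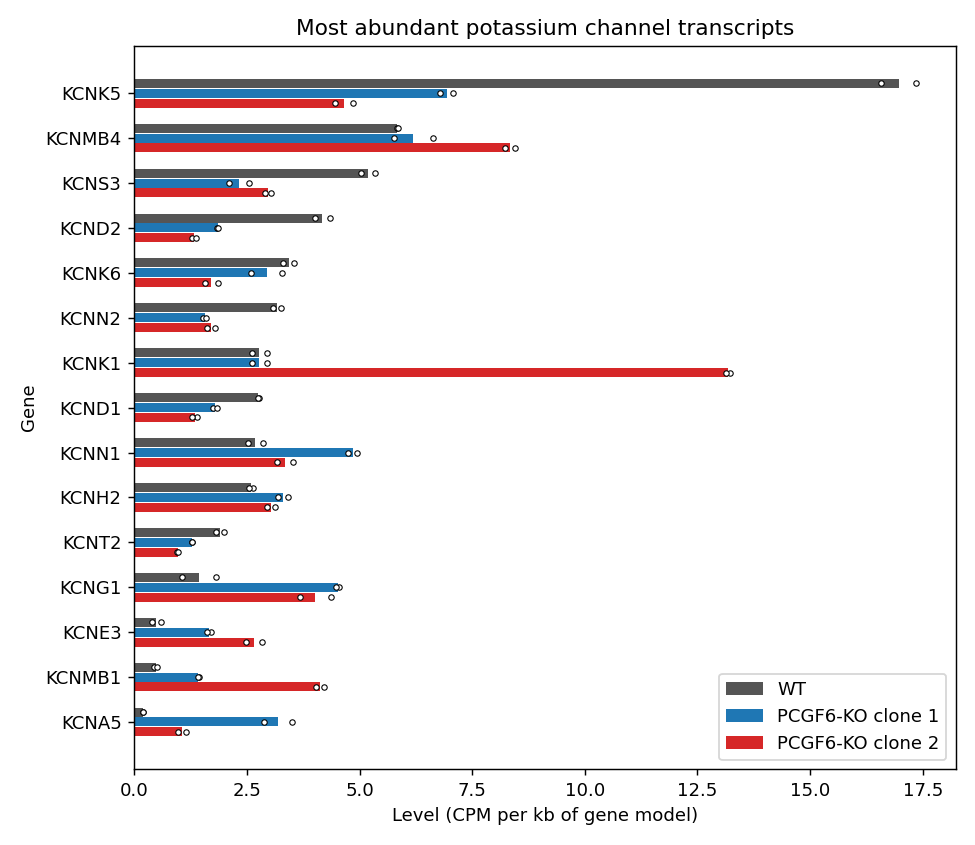
Level per kilobase of gene model (CPM per kb) of 15 potassium channel genes that were among the 15 highest in WT or the 10 highest in a clone. Bars are group means and open circles the 2 libraries of each group, and KCNK5 is longest in WT and clone 1 while KCNK1 is longest in clone 2.

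Among the 23 tested voltage-gated alpha genes, 3 were higher and 6 lower in PCGF6-KO (backgrounds 14.9% and 8.7% of all genes tested). The summed level of the class was 153 to 154 CPM in WT, 118 to 121 CPM in clone 1 and 96.2 to 104 CPM in clone 2. This and the other classes and subfamilies are small, and their counts were not tested against the background. In the Shaker family (KCNA), 2 of 3 tested genes were higher (background 14.9%). KCNA5, a channel of atrial and smooth muscle membranes that the annotation places at chr12:5043879-5046788 (GRCh38), had 0.553 and 0.539 CPM in WT, 8.05 and 9.79 (clone 1) and 3.2 and 2.74 (clone 2). All KCNA5 values in PCGF6-KO were above WT, and clone 1 was above clone 2. For KCNA5 edgeR gave a log2 fold change of 3.43 (SE 0.68, adjusted p = 0.00385). KCNA2, an axonal channel at chr1:110519837-110631474, had 2.15 and 2.34 CPM in WT, 6.01 and 7.26 (clone 1) and 3.64 and 3.99 (clone 2), again highest in clone 1. For KCNA2 edgeR gave a log2 fold change of 1.22 (SE 0.32, adjusted p = 0.0165). The call for KCNA2 was lost without WT replicate 1 (adjusted p = 0.116) and without WT replicate 2 (adjusted p = 0.095). KCNA1 was tested and not called (log2 fold change −0.15, adjusted p = 0.827), and KCNA3, KCNA4, KCNA6, KCNA7 and KCNA10 had too few counts.

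KCNB2, a slow delayed rectifier, was not called (log2 fold change 0.44). KCNC4 and KCNC1, of the KCNC subfamily, were not called either, at log2 fold changes of −0.19 and −1.10.

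The KCND genes encode the A-type Kv4 channels, which inactivate quickly. KCND2 (chr7:120273175-120750337) had 22.3 and 24.1 CPM in WT, 10.3 and 10.3 (clone 1) and 7.17 and 7.6 (clone 2), so that no PCGF6-KO library reached the WT values. For KCND2 edgeR gave a log2 fold change of −1.39 (SE 0.16, adjusted p = 0.000208). KCND1 was also lower, with 16 and 15.9 CPM in WT, 10.1 and 10.6 (clone 1) and 8.11 and 7.48 (clone 2). For KCND1 edgeR gave a log2 fold change of −0.81 (SE 0.16, adjusted p = 0.00357). In clone 1 the KCND1 call was lost without clone 1 replicate 1 (log2 fold change −0.58). KCND3, the remaining Kv4 gene, went the other way. Its level was 1.78 and 1.62 CPM in WT, 2.51 and 2.15 (clone 1) and 4.14 and 3.05 (clone 2), and it was called higher in clone 2 (log2 fold change 1.09, SE 0.27, adjusted p = 0.00131) but not in PCGF6-KO as a whole (adjusted p = 0.0736). Of the 11 potassium channel genes called lower with a RefSeq promoter, KCND2 alone held CACGTG, the E-box bound by MAX. The match starts 181 bases before the transcription start, and 30 bases around it are printed from chr7:120272982-120273011 (GRCh38.p14, plus strand), with the E-box in capitals.
KCND2: accgcagcccagCACGTGaagcttcccttt

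Of the 7 tested KCNH genes, 1 was called lower and 0 higher (backgrounds 8.7% and 14.9%). KCNH6, an ether-a-go-go-related channel at chr17:63523334-63548977, had 2.89 and 3.3 CPM in WT, 1.26 and 0.99 (clone 1) and 0.993 and 0.436 (clone 2), with both clones below WT. For KCNH6 edgeR gave a log2 fold change of −1.73 (SE 0.34, adjusted p = 0.00365). KCNH2, the cardiac hERG channel and the most abundant of the family, was at 15.5 and 15 CPM in WT, 20.0 and 18.8 (clone 1) and 18.3 and 17.3 (clone 2) and was not called (log2 fold change 0.29, SE 0.10, adjusted p = 0.0534). In clone 2 alone, KCNH5 (0.91, adjusted p = 0.00844) and KCNH1 (1.90, adjusted p = 0.0362, on 1 and 5 WT counts) were called higher on the log2 scale. KCNH1 lost that call without WT replicate 1 (adjusted p = 0.275) and with DESeq2 (adjusted p = 0.202) and KCNH5 without WT replicate 1 (adjusted p = 0.104), without clone 2 replicate 1 (adjusted p = 0.129) and with DESeq2 (adjusted p = 0.104). The log2 fold change of KCNH1 was 1.19 without WT replicate 1, 3.35 without WT replicate 2 and 2.56 without clone 2 replicate 2. KCNH4, KCNH7 and KCNH8 had log2 fold changes between −0.88 and −0.30 and were not called.

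The KCNQ (Kv7) genes encode the channels of the M-current, which restrains repeated firing in neurons. KCNQ5 (chr6:72621792-73198853) was at 0.86 and 1.14 CPM in WT, 2.09 and 3.41 (clone 1) and 4.19 and 3.37 (clone 2), above WT in both clones. For KCNQ5 edgeR gave a log2 fold change of 1.70 (SE 0.34, adjusted p = 0.00451). KCNQ3, a subunit of M-current channels, had 4.67 and 4.61 CPM in WT, 4.08 and 4.84 (clone 1) and 8.11 and 7.79 (clone 2). Clone 1 overlapped WT and clone 2 was above it (log2 fold change 0.78, SE 0.17, adjusted p = 0.000467 for clone 2). KCNQ1 was at 2 to 15 counts and was not called. The KCNQ5 call was lost without WT replicate 1 (adjusted p = 0.0556).

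Of the 12 called higher with a RefSeq promoter, KCNQ5 alone matched GCGGGAA, the motif of E2F6, on either strand. It held 2 matches, 178 and 56 bases before the RefSeq start, the second as its reverse complement. That start lies downstream of the first base of the KCNQ5 interval given above, so both matches lie inside that interval. They are printed with the motif in capitals, from chr6:72621875-72621904 and chr6:72621997-72622026 (GRCh38.p14, plus strand).
KCNQ5 first: gagtggtagtcGCGGGAAtgagggagcaag
KCNQ5 second: cagcccctcctTTCCCGCcccgaagcccgg
Promoters of 300 bases (250 before and 50 after the start) were found in RefSeq for 71 of the 95 genes. CACGTG occurred in 3 of the 71 (4.23%) and in 7.26% of 35116 promoters of all genes, and GCGGGAA in 5 (7.04%) against 6.55%. The share was below that of all promoters for CACGTG and near it for GCGGGAA. A match is only a run of letters in this window and was not checked for binding.

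Silent subunits had 3 higher and 1 lower of 6 tested (backgrounds 14.9% and 8.7%). KCNG1 (chr20:51003656-51023107), which changes the gating of other Kv channels, had 9.83 and 5.81 CPM in WT, 24.7 and 24.4 (clone 1) and 23.8 and 19.9 (clone 2). Its PCGF6-KO values were all above both WT libraries, which themselves lay apart. For KCNG1 edgeR gave a log2 fold change of 1.57 (SE 0.20, adjusted p = 0.000331). KCNV1, another silent subunit, rose from a low level, with 2 and 5 counts (WT), 21 and 15 (clone 1) and 22 and 18 (clone 2). For KCNV1 edgeR gave a log2 fold change of 2.29 (SE 0.47, adjusted p = 0.00464). Without WT replicate 2 it was 3.04, and without WT replicate 1 it was 1.80. KCNS1 was higher by less, at 2.52 and 2.58 CPM in WT, 4.29 and 4.68 (clone 1) and 5.07 and 4.49 (clone 2). For KCNS1 edgeR gave a log2 fold change of 0.86 (SE 0.19, adjusted p = 0.00693). KCNS3 (chr2:17877847-18361616) was the member that fell, with 16.7 and 15.8 CPM in WT, 6.59 and 7.98 (clone 1) and 9.1 and 9.54 (clone 2). For KCNS3 edgeR gave a log2 fold change of −0.97 (SE 0.16, adjusted p = 0.00134). KCNG3 was called lower in clone 2 alone (log2 fold change −0.94, SE 0.28, adjusted p = 0.0063), and KCNF1 was not called in any comparison. The calls of KCNV1 and KCNS1 were lost without WT replicate 1 (adjusted p = 0.0578) for KCNV1 and without WT replicate 1 (adjusted p = 0.0612) and without WT replicate 2 (adjusted p = 0.0558) for KCNS1, and the KCNG3 call without WT replicate 2 (adjusted p = 0.0795), without clone 2 replicate 1 (adjusted p = 0.0569) and with DESeq2 (adjusted p = 0.0909).

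Among 7 tested inward rectifiers, 2 were higher and 0 lower (backgrounds 14.9% and 8.7%). The summed level of the 16 KCNJ genes was 10.1 to 11 CPM in WT, 20.1 to 20.5 CPM in clone 1 and 18.3 to 20.1 CPM in clone 2. KCNJ3 (chr2:154697855-154858354), the G-protein-gated GIRK1 subunit of heart and brain, accounted for much of that sum, with 0.491 and 0.479 CPM in WT, 9.05 and 10.6 (clone 1) and 8.16 and 9.29 (clone 2). The WT libraries held 8 counts each and the PCGF6-KO libraries 148 to 192 (log2 fold change 4.23, SE 0.24, adjusted p = 2.71e-06). KCNJ6, the GIRK2 subunit that can pair with GIRK1, was not raised with it. Its level was 1.47 and 2.1 CPM in WT, 1.36 and 1.16 (clone 1) and 0.607 and 0.748 (clone 2), and clone 2 was called lower (log2 fold change −1.40, SE 0.39, adjusted p = 0.00378). KCNJ5, the cardiac partner of GIRK1, had too few counts to pass the filter, with 1 and 0 counts (WT), 4 and 5 (clone 1) and 19 and 6 (clone 2). KCNJ2, KCNJ10 and KCNJ12 were not called, with log2 fold changes between 0.03 and 0.30. KCNJ12 has a near-identical copy, KCNJ18, which had 0 counts in every library. The clone 2 call of KCNJ6 was lost without WT replicate 2 (adjusted p = 0.0764) and with DESeq2 (adjusted p = 0.0636).

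KATP channels join an inward rectifier pore to a sulphonylurea receptor and close with ATP. Both elements of the vascular type were higher. KCNJ8, its pore (Kir6.1, chr12:21764955-21775600), had 0.553 and 0.839 CPM in WT, 2.77 and 1.6 (clone 1) and 3.31 and 3.3 (clone 2). For KCNJ8 edgeR gave a log2 fold change of 1.96 (SE 0.40, adjusted p = 0.00463). The KCNJ8 call was lost without WT replicate 1 (adjusted p = 0.0573). ABCC9, the receptor SUR2, had 1 and 2 counts (WT), 21 and 32 (clone 1) and 57 and 52 (clone 2), a ratio of 24.9 in favour of PCGF6-KO (95% counting interval 8.37 to 122, adjusted p = 0.00145). The beta cell and neuronal type was not. KCNJ11, its pore (Kir6.2), was at 2.4 and 3.72 CPM in WT, 1.94 and 2.04 (clone 1) and 1.38 and 0.81 (clone 2). It was called lower in clone 2 (log2 fold change −1.46, SE 0.32, adjusted p = 0.000482) and not in PCGF6-KO (adjusted p = 0.0607). Its receptor ABCC8 (SUR1) fell from 4.05 and 3.6 CPM in WT to between 0.105 and 0.441 CPM (log2 fold change −3.67, SE 0.40, adjusted p = 0.000126). The summed cardiac and smooth muscle markers, given with the depth, moved in the same direction as KCNJ8 and ABCC9, with 5 of the 7 called higher. So did the sums of the primitive streak and mesoderm, endoderm, neural crest and neural progenitor markers. A link of KCNJ8 and ABCC9 to any of these markers was not tested.

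**Figure D3:**
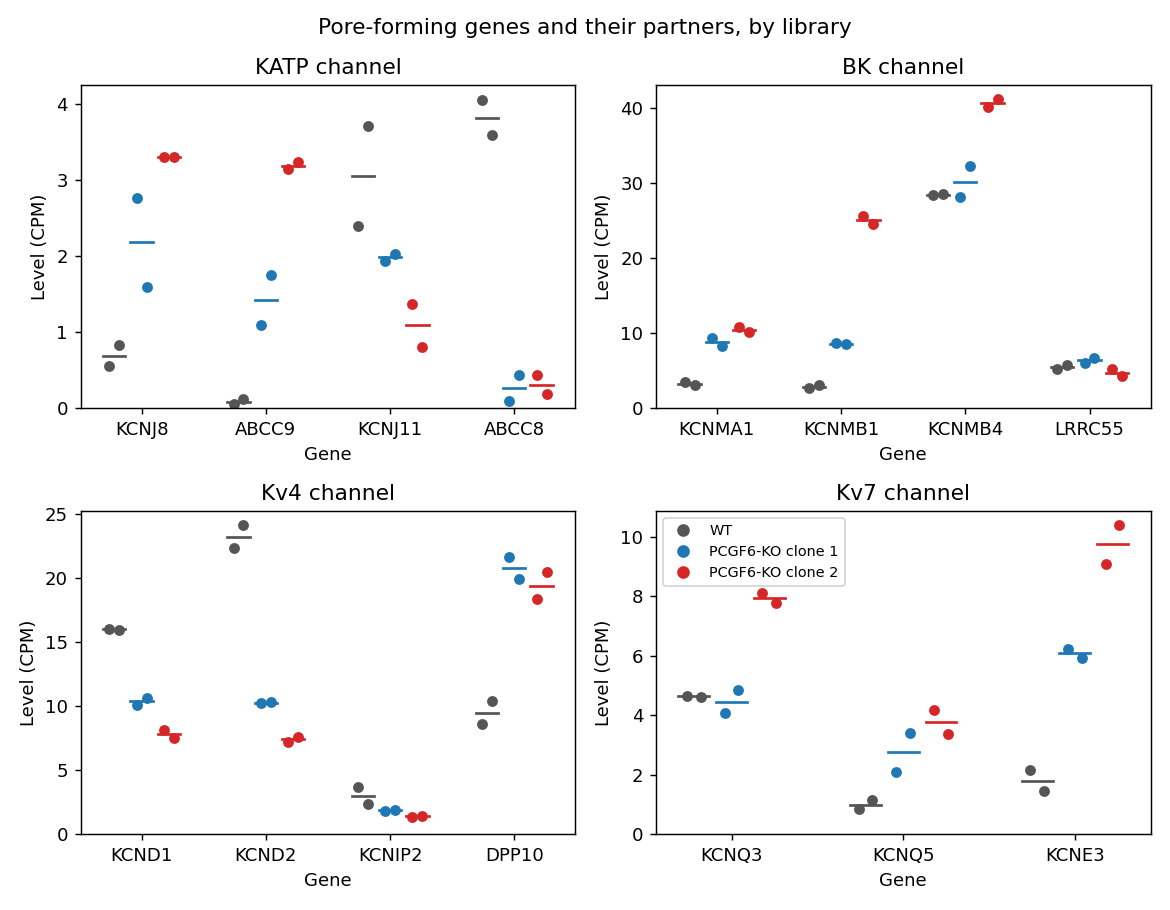
Level (CPM) in each library of genes that form KATP, BK, Kv4 and Kv7 channels; points are libraries and short lines group means, in grey for WT, blue for PCGF6-KO clone 1 and red for clone 2. KCNJ8 and ABCC9 lie above WT in all 4 PCGF6-KO libraries while ABCC8 lies below, and KCNMB1 is highest in clone 2.

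Of 9 tested 2-pore leak channels, 1 was higher and 2 lower in PCGF6-KO (backgrounds 14.9% and 8.7%). KCNK5 (chr6:39188971-39229475) had 62.3 and 65.2 CPM in WT, 26.6 and 25.5 (clone 1) and 18.3 and 16.7 (clone 2), falling in both clones from the highest level of the family. For KCNK5 edgeR gave a log2 fold change of −1.55 (SE 0.17, adjusted p = 0.000146). KCNK10 (TREK-2), opened by stretch and lipids, was also lower, at 1.6 and 1.44 CPM in WT, 0.471 and 0.44 (clone 1) and 0.662 and 0.81 (clone 2). For KCNK10 edgeR gave a log2 fold change of −1.35 (SE 0.34, adjusted p = 0.0125). KCNK3 (TASK-1), closed by acid, was the only tested gene with 0 counts in both WT libraries; clone 1 held 11 and 7 counts and clone 2 held 19 and 5. Against a limit of 3 counts per WT library it was at least 3.19-fold higher in PCGF6-KO (adjusted p = 0.00995). KCNK3 passed the filter on low counts only through the PCGF6-KO libraries, where it was high, so this adjusted p is given as a description. The same holds for KCNJ3, KCNA5, KCNV1, KCNE1, KCNE4, KCNH1, KCNK9 and ABCC9, which fell below the limit of the filter in both WT libraries. They were included in the counts of genes called higher. The KCNK10 call was lost without WT replicate 1 (adjusted p = 0.103), without WT replicate 2 (adjusted p = 0.0698) and with DESeq2 (adjusted p = 0.0605), and the KCNK3 call without WT replicate 1 (adjusted p = 0.0554) and without WT replicate 2 (adjusted p = 0.0582).

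KCNK1 (TWIK-1, chr1:233614106-233672514) separated the clones. It had 9.46 and 10.7 CPM in WT, 9.47 and 10.7 (clone 1) and 48 and 47.6 (clone 2). Clone 1 overlapped WT and both clone 2 libraries lay above every other library. In clone 2 it was called against WT (log2 fold change 2.25, SE 0.11, adjusted p = 1.09e-15), in clone 1 it was not (log2 fold change −0.00, SE 0.13, adjusted p = 0.996), and the 4 PCGF6-KO libraries together did not pass (adjusted p = 0.123). KCNK6 (TWIK-2) differed the other way, with 20.4 and 21.9 CPM in WT, 16 and 20.2 (clone 1) and 11.5 and 9.66 (clone 2), and was lower in clone 2 (log2 fold change −1.0, SE 0.13, adjusted p = 3.36e-07). KCNK9 (TASK-3) was called higher in clone 1 alone, on 1 and 6 WT counts (adjusted p = 0.0105), and KCNK17 lower in clone 2 alone (adjusted p = 0.0405). Those calls were lost without WT replicate 1 (adjusted p = 0.181) and with DESeq2 (adjusted p = 0.125) for KCNK9 and without WT replicate 1 (adjusted p = 0.332), without clone 2 replicate 1 (adjusted p = 0.34) and with DESeq2 (adjusted p = 0.269) for KCNK17. With 1 library left out, the log2 fold change ranged from 1.28 without WT replicate 1 to 3.71 without WT replicate 2 for KCNK9, and from −2.36 without clone 2 replicate 2 to −0.80 without clone 2 replicate 1 for KCNK17. KCNK2 and KCNK12 were not called.

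The calcium- and sodium-activated channels had 2 higher and 2 lower of 7 tested (backgrounds 14.9% and 8.7%). KCNMA1 (chr10:76869601-77638369), the pore of the large-conductance BK channel, had 3.5 and 3.12 CPM in WT, 9.36 and 8.36 (clone 1) and 10.8 and 10.2 (clone 2). Both clones were above WT. For KCNMA1 edgeR gave a log2 fold change of 1.55 (SE 0.17, adjusted p = 0.000167). Its exons overlap an antisense gene, and strand was not stated for the counting. The small-conductance KCNN genes, opened through calmodulin, did not move together. KCNN2 had 20.0 and 21.2 CPM in WT, 9.94 and 10.4 (clone 1) and 11.6 and 10.4 (clone 2) and was lower in both clones. For KCNN2 edgeR gave a log2 fold change of −0.96 (SE 0.11, adjusted p = 0.000176). KCNN1 had 10.0 and 11.4 CPM in WT, 19.7 and 18.9 (clone 1) and 14.1 and 12.6 (clone 2) and passed the fold threshold narrowly (log2 fold change 0.61, SE 0.20, adjusted p = 0.0393), and the call was lost without WT replicate 1 (adjusted p = 0.232), without WT replicate 2 (adjusted p = 0.126), without clone 1 replicate 1 (adjusted p = 0.0638), without clone 1 replicate 2 (adjusted p = 0.0723), with upper-quartile normalization (adjusted p = 0.0531) and with the mean of the clones (log2 fold change 0.58). KCNN3 was at 4.42 and 4.97 CPM in WT, 3.71 and 3.69 (clone 1) and 1.76 and 1.81 (clone 2), lower in clone 2 (log2 fold change −1.39, SE 0.23, adjusted p = 1.58e-05). KCNT2, a sodium-activated channel, was lower, at 12.9 and 14.1 CPM in WT, 9.1 and 9.08 (clone 1) and 6.78 and 6.86 (clone 2) (log2 fold change −0.76, SE 0.16, adjusted p = 0.0062), with the call lost without WT replicate 2 (adjusted p = 0.0766). The KCNN1 call was also lost with the replicate number added to the fit as a block (adjusted p = 0.0738). KCNN4 and KCNT1 were not called.

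Among 14 tested auxiliary subunits, 4 were higher and 3 lower (backgrounds 14.9% and 8.7%). The summed level of the class was 60.9 to 62.9 CPM in WT, 66.5 to 71.3 CPM in clone 1 and 96 to 96.5 CPM in clone 2. KCNMB1 (chr5:170374671-170389634), the beta 1 subunit that tunes BK channels of smooth muscle to calcium, had 2.7 and 3.12 CPM in WT, 8.68 and 8.58 (clone 1) and 25.6 and 24.5 (clone 2). It rose in both clones, further in clone 2 (log2 fold change 2.53, SE 0.56, adjusted p = 0.00706), and the call on the 4 libraries together was lost without WT replicate 1 (adjusted p = 0.0701) and without WT replicate 2 (adjusted p = 0.0582). KCNMB4, the neuronal beta subunit, was at 28.4 and 28.5 CPM in WT, 28.1 and 32.3 (clone 1) and 40.2 and 41.1 (clone 2) and stayed under the fold threshold in clone 2 (log2 fold change 0.51, SE 0.09, adjusted p = 4.63e-05). KCNMB2 and KCNMB3 were not called. ACTA2, a smooth muscle actin of the marker list, was at 0.0614 and 0.24 CPM in WT, 23.7 and 21.2 (clone 1) and 49.3 and 46.1 (clone 2), in the same order of groups as KCNMB1. The list as a whole did not follow that order. In clone 2 against clone 1, 1 of its 7 genes was called higher, 1 lower and 5 were not called. A link of KCNMB1 to these markers was not tested.

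The KCNE genes encode small single-span subunits of KCNQ, KCNH and other Kv channels. KCNE3 (chr11:74454841-74467729) had 2.15 and 1.44 CPM in WT, 6.22 and 5.94 (clone 1) and 9.1 and 10.4 (clone 2), highest in clone 2. For KCNE3 edgeR gave a log2 fold change of 2.14 (SE 0.32, adjusted p = 0.000849). KCNE1 was at 2 and 1 counts (WT), 15 and 9 (clone 1) and 19 and 11 (clone 2), a ratio of 8.3 in favour of PCGF6-KO (95% counting interval 2.69 to 41.5, adjusted p = 0.00584). Its near-identical copy KCNE1B, outside the rule, had 1 and 1 counts (WT), 12 and 5 (clone 1) and 21 and 13 (clone 2), so reads may be divided between them. KCNE5, whose exon overlaps ACSL4 on the same strand, had 1.47 and 0.959 CPM in WT, 2.51 and 3.85 (clone 1) and 2.65 and 1.81 (clone 2). For KCNE5 edgeR gave a log2 fold change of 1.15 (SE 0.36, adjusted p = 0.0335), a call lost with the replicate block (adjusted p = 0.0625). KCNE4 was called higher in clone 2 alone, at 3 and 2 counts (WT), 6 and 6 (clone 1) and 17 and 12 (clone 2) (adjusted p = 0.00221), a call lost with DESeq2 (adjusted p = 0.0629). The KCNE1 call was lost without WT replicate 2 (adjusted p = 0.0693), and the KCNE5 call without WT replicate 1 (adjusted p = 0.0741), without WT replicate 2 (adjusted p = 0.233), without clone 1 replicate 2 (adjusted p = 0.054) and without clone 2 replicate 1 (adjusted p = 0.0507).

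Of the 6 tested cytoplasmic subunits (KCNAB and KCNIP), 3 were lower and 0 higher (backgrounds 8.7% and 14.9%). KCNAB1 (chr3:156037701-156539138), a beta subunit that speeds inactivation of KCNA channels, had 4.54 and 4.37 CPM in WT, 1.83 and 1.65 (clone 1) and 3.03 and 2.68 (clone 2), lower in both clones. For KCNAB1 edgeR gave a log2 fold change of −0.96 (SE 0.27, adjusted p = 0.0213). KCNAB2, which overlaps exons of NPHP4 on the opposite strand, was at 11 and 9.77 CPM in WT, 6.69 and 7.54 (clone 1) and 5.29 and 3.49 (clone 2). For KCNAB2 edgeR gave a log2 fold change of −0.85 (SE 0.26, adjusted p = 0.0312), a call lost with the replicate block (adjusted p = 0.0612). KCNIP2, the calcium-binding partner of Kv4 channels, was at 3.68 and 2.34 CPM in WT, 1.83 and 1.93 (clone 1) and 1.38 and 1.43 (clone 2), and so fell beside KCND2 and KCND1. For KCNIP2 edgeR gave a log2 fold change of −0.87 (SE 0.27, adjusted p = 0.0344), a call lost with the replicate block (adjusted p = 0.0590). In clone 2 alone KCNIP3 (adjusted p = 0.0111) and KCNAB3 (adjusted p = 0.0275) were called lower, and KCNIP4 was not called. KCNIP3 lost that call without WT replicate 2 (adjusted p = 0.0905), without clone 2 replicate 1 (adjusted p = 0.106) and with DESeq2 (adjusted p = 0.118), and KCNAB3 without WT replicate 1 (adjusted p = 0.134), without clone 2 replicate 1 (adjusted p = 0.295) and with DESeq2 (adjusted p = 0.206). The PCGF6-KO calls were lost without WT replicate 1 (adjusted p = 0.121) and without WT replicate 2 (adjusted p = 0.102) for KCNAB1, without WT replicate 1 (adjusted p = 0.185), without WT replicate 2 (adjusted p = 0.114) and without clone 2 replicate 1 (adjusted p = 0.0628) for KCNAB2 and without WT replicate 1 (adjusted p = 0.343), without clone 2 replicate 1 (adjusted p = 0.0725), without clone 2 replicate 2 (adjusted p = 0.0674) and with DESeq2 (adjusted p = 0.0827) for KCNIP2.

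**Figure D4:**
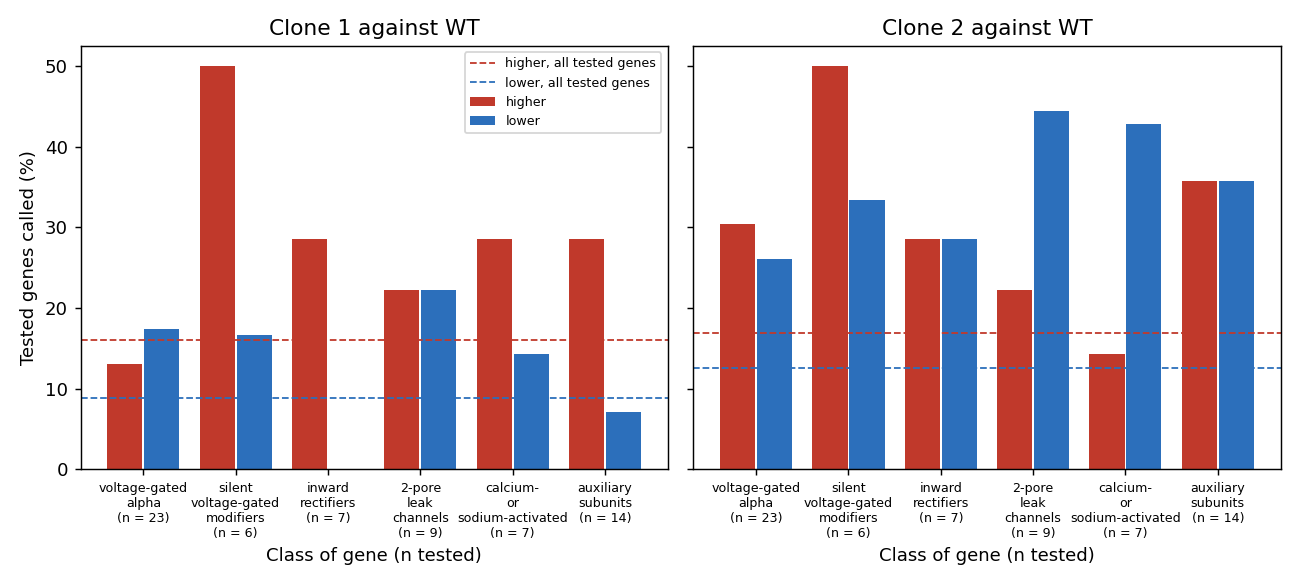
Share of the tested genes of each class called higher (red) or lower (blue) in clone 1 (left) and clone 2 (right) against the same WT libraries; dashed lines are the shares over all 17672 genes tested. The classes hold only 6 to 23 genes, and no inward rectifier was called lower in clone 1 while 2 were in clone 2.

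The 11 genes called between the clones make up 16.7% of the 66, against 7.87% of all genes tested. In clone 2, 6 were higher than in clone 1 (9.09%, background 3.73%) and 5 lower (7.58%, background 4.14%). KCNK1 had the largest difference (log2 difference 2.25, SE 0.10, adjusted p = 2.64e-14, clone 2 minus clone 1), followed by KCNA5 in the other direction (log2 difference −1.58, SE 0.19, adjusted p = 1e-06) and KCNMB1 (log2 difference 1.54, SE 0.12, adjusted p = 4.32e-10). KCNN3 was lower in clone 2 (log2 difference −1.05, SE 0.24, adjusted p = 0.00219), as were KCNA2 (log2 difference −0.80, SE 0.19, adjusted p = 0.00332), KCNK6 (log2 difference −0.77, SE 0.13, adjusted p = 8.75e-05) and KCNAB2 (log2 difference −0.68, SE 0.19, adjusted p = 0.00972). The KCNH5 level was 1.6 and 2.34 CPM in WT, 1.46 and 2.31 (clone 1) and 4.25 and 3.12 (clone 2). Higher in clone 2 were KCNH5 (log2 difference 0.97, SE 0.28, adjusted p = 0.0126), KCNQ3 (log2 difference 0.84, SE 0.17, adjusted p = 0.000722), KCNAB1 (log2 difference 0.71, SE 0.25, adjusted p = 0.0476) and KCNE3 (log2 difference 0.68, SE 0.16, adjusted p = 0.00372). KCNA5, KCNA2, KCNMB1 and KCNE3 were called higher and KCNAB1 lower than WT in both clones, so there the clones differed in the size of the change, although the clone 2 call of KCNAB1 was lost without WT replicate 1 (adjusted p = 0.0811), without WT replicate 2 (adjusted p = 0.0539), without clone 2 replicate 2 (adjusted p = 0.104) and with DESeq2 (adjusted p = 0.191), and that of KCNA2 with DESeq2 (adjusted p = 0.0752). The difference in KCNAB1 lay close to the threshold. It was no longer called when any 1 of the 6 libraries was left out, with adjusted p from 0.0573 to 0.238 and log2 differences from 0.62 to 0.80, nor with DESeq2 (adjusted p = 0.269) or upper-quartile normalization (adjusted p = 0.0564). KCNA2 lost its call with DESeq2 (adjusted p = 0.08). KCNAB2 lost its call without clone 1 replicate 2 (adjusted p = 0.059), without clone 2 replicate 2 (adjusted p = 0.194) and with DESeq2 (adjusted p = 0.0803), and KCNH5 without clone 1 replicate 1 (adjusted p = 0.15), without clone 2 replicate 1 (adjusted p = 0.182) and with DESeq2 (adjusted p = 0.141). The same held for KCNK6 without clone 1 replicate 2 (log2 fold change −0.60) and KCNE3 without clone 2 replicate 2 (adjusted p = 0.0586) and with DESeq2 (adjusted p = 0.0767). PCGF6 itself also differed between the clones (log2 difference 0.90, SE 0.15, adjusted p = 5.44e-05).

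**Figure D5:**
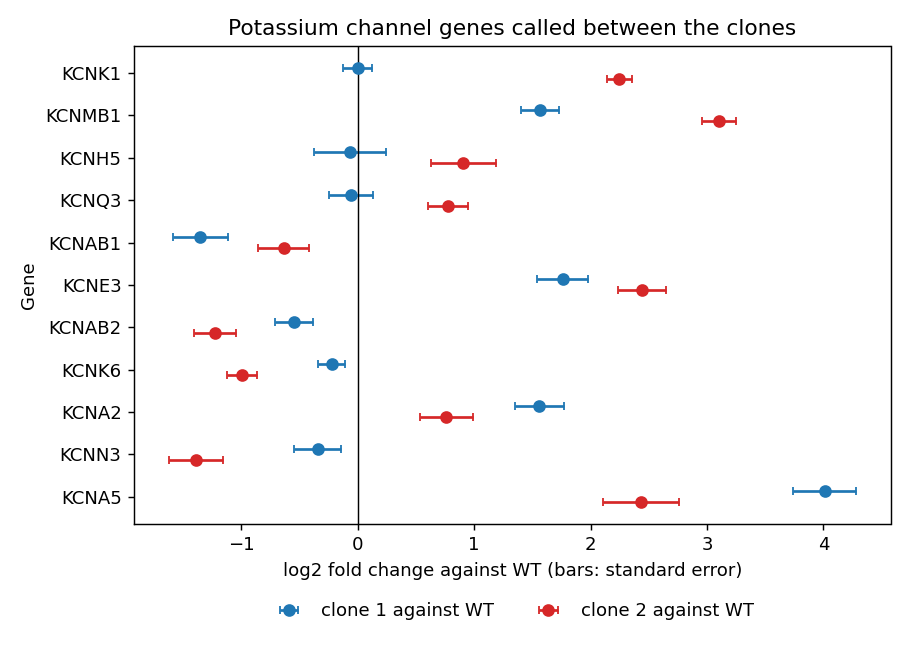
Log2 fold change against WT (points, bars are standard errors from the 3-group edgeR fit) of clone 1 (blue) and clone 2 (red) for the 11 potassium channel genes called between the clones. KCNK1, KCNH5 and KCNQ3 lie near 0 in clone 1 and to the right in clone 2, and KCNA5 lies further right in clone 1.

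Beyond the KCN symbols, 20 genes of potassium channel partners, HCN channels and the sodium-potassium pump were examined. Of the 15 tested, 3 were higher and 4 lower (backgrounds 14.9% and 8.7% of all genes tested), with a median log2 fold change of −0.06. DPP10, which brings Kv4 channels to the membrane, rose while KCND1, KCND2 and KCNIP2 fell, with 8.6 and 10.4 CPM in WT, 21.6 and 19.9 (clone 1) and 18.3 and 20.4 (clone 2). For DPP10 edgeR gave a log2 fold change of 1.08 (SE 0.13, adjusted p = 0.000197). ATP1A4, the sperm form of the alpha subunit of the pump, which builds the potassium gradient, was higher from a low level (log2 fold change 1.38, SE 0.43, adjusted p = 0.0317). The summed level of the 7 pump genes was 801 to 810.1 CPM in WT, 744 to 752 CPM in clone 1 and 753 to 757 CPM in clone 2. In PCGF6-KO, 1 of the 7 pump genes was called higher and 2 lower, and of the 4 HCN genes 0 were higher and 1 lower.

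The 95 genes lie on 21 chromosomes, and the exons of 21 of them overlap another counted gene. Besides KCNMA1, KCNAB2 and KCNE5, the called genes among them were KCNQ5, KCNIP2 and KCND3, overlapped on the opposite strand, and KCNJ6 and KCNH1, on the same strand. Of the 29 genes that were not tested, 6 (KCNA6, KCNG4, KCNJ18, KCNK4, KCNK16 and KCNK18) had 0 counts in all 6 libraries, which allows up to 3 counts per library, or 0.157 to 0.187 CPM. For the other 23 the highest count in any library was 19 (KCNJ5, clone 2). KCNJ1, the renal ROMK channel, had 7 counts in each WT library and 0 to 1 in PCGF6-KO, and KCNA4 had 0 counts in WT and 2 to 5 in PCGF6-KO. These genes were removed by the filter on low counts. In a fit without that filter, 23 of them were tested among 34055 genes, and 2 were called in PCGF6-KO against WT, where 13.3% of all genes were. They were KCNJ1, which was lower (adjusted p = 0.0129), and KCNJ5, which was higher (adjusted p = 0.0193). KCNA4 was not called (adjusted p = 0.0528). KCNK3, with 0 counts in WT, and the genes named with it above passed the filter through PCGF6-KO alone, whereas KCNJ1, with 7 counts in each WT library, did not pass. The numbers of genes called higher and lower therefore depend also on the filter.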

How the data were processed

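RNA-seq counts of WT PGP1 cells and 2 PCGF6-KO clones (2 libraries each) were used, with groups taken from the sample titles. The authors trimmed reads with Trim_galore (0.6.2), aligned them to GRCh38 with HISAT2 (2.1.0) and used featureCounts for the gene-level counts, which they deposited raw, without normalization. Which annotation release was used, whether strand was considered and how multi-mapping reads were treated is not given in the sources used here. ChIP-seq was not analysed here.

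Genes with low counts were removed with filterByExpr, libraries were scaled by TMM (CPM use the scaled library sizes), and the 4 PCGF6-KO libraries were tested against WT by glmQLFTest of edgeR 4.0.16 (limma 3.58.1, R 4.3.3). A fit with 3 groups compared each clone with WT and with the other clone. P-values were adjusted by Benjamini-Hochberg over 17672 genes. Given in full are the 20 potassium channel genes called in PCGF6-KO with the largest fold changes, all called between the clones and the 5 with the highest WT level per kb, except that some of these genes are not reported here; they remain in the counts and sums. Genes and lists were chosen with earlier results of these data known. Intervals and limits cover counting error only, and a count of 0 allows up to 3 counts. Replicates differed beyond sampling noise (chi-square per degree of freedom 2.40, 4.50 and 3.21 for WT, clone 1 and clone 2), so no libraries were merged. Positions are from GENCODE 44 and promoters from RefSeq (GRCh38.p14).

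In a test on simulated counts, PCGF6-KO against WT called 87 of 100 genes changed by 1 log2 unit, 92 of 100 changed by 2 and 2 others, of 17198 genes. The simulated counts had the spread within groups and the same fold in both clones. They leave out the differences between the clones, so these numbers do not give the recovery or the false calls of the real comparison. Results were recomputed without a fold threshold, with no filter, with DESeq2 1.42.0, with upper-quartile or RLE normalization, and with the mean of the clones, a replicate block or 1 library left out. Python 3.11.15 with pandas 2.3.3, numpy 2.4.6, scipy 1.17.1 and matplotlib 3.10.9 was used for tables and figures.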

Additional observations from a re-analysis of the deposited data

Results flagged for a closer look

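The change against WT differed between the clones, by the edgeR test of clone 2 against clone 1, for 11 potassium channel genes. The log2 difference, clone 2 minus clone 1, was 2.25 for KCNK1, 1.54 for KCNMB1, 0.97 for KCNH5, 0.84 for KCNQ3, 0.71 for KCNAB1 and 0.68 for KCNE3. It was −1.58 for KCNA5, −1.05 for KCNN3, −0.80 for KCNA2, −0.77 for KCNK6 and −0.68 for KCNAB2. Each clone is 1 edited line, so a difference between the clones and a difference between edited lines in general cannot be told apart.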

How the results depend on the processing

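No call changed direction under any alternative run. All alternatives in which the gene was tested kept 13 of the 29 calls in PCGF6-KO, 20 of 25 in clone 1, 29 of 42 in clone 2 and 5 of 11 between the clones. KCNK3 is among those kept in clone 1 and in clone 2, although it was tested in only 8 of 11 alternatives there. In PCGF6-KO, leaving out 1 library gave 6 to 15 genes higher and 9 to 14 lower, and the mean of the clones gave 22 lower. With DESeq2 the lower calls in clone 2 numbered 14, and those between the clones 3 higher and 3 lower; without the fold threshold 12 were lower between the clones. The replicate differences of the groups were weakly and positively correlated (Pearson 0.04 to 0.15, Spearman 0.11 to 0.23), and the replicate numbers were not taken as pairs. The replicate block gave 13 higher and 11 lower in PCGF6-KO. Values near 0 in clone 1 changed sign as single libraries were left out, with log2 fold changes from −0.0864 to 0.0963 for KCNK1, −0.17 to 0.0658 for KCNQ3, −0.00367 to 0.19 for KCNMB4 and −0.41 to 0.24 for KCNH5. The cause of these changes was not tested. Leaving out a WT library leaves 1, which is assumed to vary like the others.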
